A study of Mus musculus with 28 samples.

Results

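Ovarian pericytes were picked out of mouse ovary single-cell libraries by the genes they expressed, not by clustering. A barcode, which stands for 1 droplet and usually 1 cell, was taken as a pericyte when it met 4 conditions. It held at least 1000 genes, at most 20% of its UMIs (unique molecular identifiers, each a captured RNA molecule) were mitochondrial, at least 3 of the 5 genes Rgs5, Higd1b, Ndufa4l2, Kcnj8 and Vtn were detected, and fewer than 4 of the 6 endothelial genes Cldn5, Flt1, Pecam1, Cd93, Tie1 and Ecscr were detected. Of the 38274 barcodes within the limits on genes and mitochondrial UMIs, 763 (1.99%) were pericytes by this rule. The ovaries came from wild-type C57BL/6J females (WT) and from Chek2-/- females with the germline allele Chek2tm1b(EUCOMM)Hmgu, which lack the DNA damage checkpoint kinase CHEK2. Females received 0.5 Gy of whole-body gamma radiation (IR) or a sham exposure (nonIR), and ovaries were collected 6 h later. For single cells the ovaries of 4 females, 7 days old, were pooled per condition, dissociated with collagenase, DNase and trypsin, and made into 1 library, so conditions have no replicate here and no test was made between single-cell libraries. For bulk RNA sequencing, paired ovaries of females 7 to 9 days old gave 6 libraries per condition.

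Pericytes are the mural cells of capillaries. They sit within the basement membrane they share with the endothelium, are recruited by endothelial PDGF-B through the receptor PDGFRB, are kept by NOTCH3 signalling, and adjust capillary tone through potassium channels, cyclic GMP and receptors for circulating peptides. Smooth muscle cells, the mural cells of arteries and larger veins, instead carry a dense contractile apparatus, and in the ovary both follow the vessels that grow into the stroma around developing follicles.

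Pericytes were 1.75 to 2.34% of the cells of each library. The non-irradiated WT library held 188 of them (1.94% of cells, exact 95% binomial limits 1.68 to 2.24%), and the irradiated WT library 181 (1.75%, 1.51 to 2.02%). The non-irradiated Chek2-/- library held 213 (2.34%, 2.04 to 2.68%), and the irradiated Chek2-/- library 181 (1.97%, 1.70 to 2.28%). The limits of the irradiated and non-irradiated library of each genotype overlapped, and those of the non-irradiated genotypes did too, but the irradiated WT limits lay below those of the non-irradiated Chek2-/- library. These limits, like all limits below, cover counting error only, and not the difference between ovaries or the spread of UMIs between cells. The median pericyte held 8411 to 9709 UMIs by library, against 14352 to 17724.5 for all cells, with a median of 3017 to 3279 genes and 7.24 to 7.89% mitochondrial UMIs. Between 16 and 36 barcode sequences were shared by any pair of libraries (0.174 to 0.372% of cells), and none belonged to a pericyte in both.

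The rule let in barcodes that also held the genes of another cell type, and these matter for every level below. In 145 of the 763 barcodes the markers of another type were detected together. Each was counted once, under the first kind it met in the order oocyte, surface epithelium, granulosa, fibroblast and macrophage. This gave 12 barcodes with oocyte, 4 with surface epithelium, 71 with granulosa, 58 with fibroblast and 0 with macrophage markers. The counts after oocyte leave out barcodes already counted under an earlier kind. The 145 held 53.6% of all pericyte UMIs, 48.8 to 60.5% by library, and the 12 with oocyte markers alone held 26.2%, at a mean of 262200 UMIs each. The doublet caller Scrublet marked 84 of the 145, and 11 of the other 618. The summed level of 8 oocyte markers (Dppa3, Sycp3, Dazl, Zp3, Gdf9, Ddx4, Ooep and Padi6) was 3600 to 7568 UPM (UMIs per 1000000 UMIs of the cells summed) across the libraries with the 145 and 48.4 to 181 without them. The 618 barcodes are called screened pericytes below. They were screened for those 5 types alone, and not for red blood cell or smooth muscle genes. Of the 618, 23 held at least 3 of 5 smooth muscle markers, and 3 barcodes of the non-irradiated WT library held 6092, 419 and 397 globin UMIs. They were set apart after the data had been seen, and they numbered 158, 137, 172 and 151 in the non-irradiated WT, irradiated WT, non-irradiated Chek2-/- and irradiated Chek2-/- libraries (1.63, 1.32, 1.89 and 1.65% of cells). Levels and ratios are given for them, with the value over all 763 beside some results only. Percentages of a gene's UMIs held by pericytes are over all 763 barcodes, the 145 included.

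**Figure D1:**
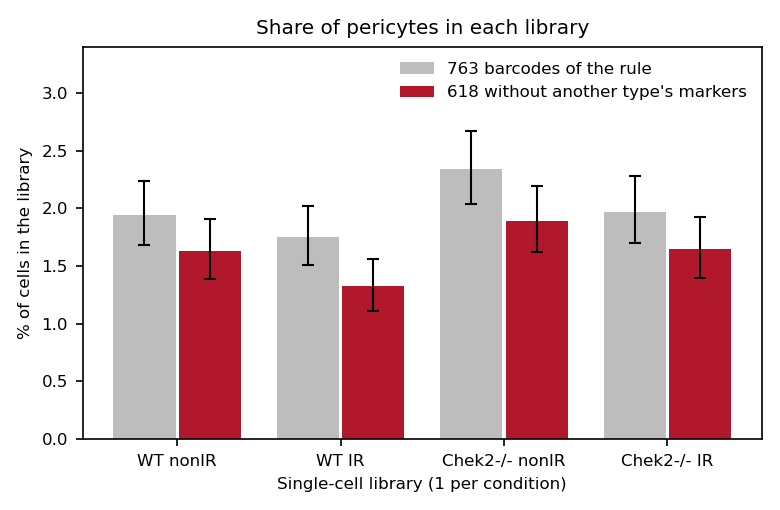
Share of cells called pericytes in each single-cell library, in percent, for all 763 barcodes (grey) and the 618 screened pericytes (red), with exact 95% binomial limits as bars. The shares run from 1.75 to 2.34% for all barcodes and from 1.32 to 1.89% for screened pericytes, and the non-irradiated Chek2-/- library is highest in both.

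Barcodes just inside and just outside the limits of the rule were compared as a description. Among barcodes under the endothelial limit, the 101 barcodes with 3 of the 5 pericyte genes held 609 UPM from those genes and the 334 with 4 held 3257. The 250 barcodes with only 2 held 119, and the other 22 mural genes listed below were at 635 UPM there, against 1357 at 3 genes and 4976 at 4. These levels were pooled over all barcodes, with none screened out for another type's markers, so barcodes with many UMIs weigh most. By barcode, a median of 8, 13 and 16 of the 22 other mural genes were detected at 2, 3 and 4 pericyte genes. On the endothelial side, 497 pericytes held 0 of the 6 endothelial genes, 241 held 1, 21 held 2 and 4 held 3. The 4 barcodes with 3 endothelial genes had a median of 309900 UMIs. The 23 barcodes that held pericyte genes but were turned away with 4 or more endothelial genes had a median of 48010.

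The 5 genes of the rule were detected unevenly. Ndufa4l2 was found in 99.6% of the 763 pericytes and Rgs5 in 98.7%, while Kcnj8 was found in 91.0%, Higd1b in 86.4% and Vtn in 54.1%. For comparison the libraries were searched for 4 other kinds of cells by marker genes: 561 smooth muscle-like, 679 endothelial-like, 15210 fibroblast-like and 13694 granulosa-like barcodes, each without pericytes and without barcodes of more than 1 kind. Because the cells were chosen by their expression, differences from these kinds are described and not tested.

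Rgs5 (chr1:169655501-169695813, plus strand, GRCm38), a brake on G protein signalling and the classic pericyte marker, stood at 2133, 2298, 2803 and 2441 UPM in screened pericytes of the 4 libraries, in the order given above, and at a mean of 31.3 in endothelial-like, 15.4 in smooth muscle-like, 1.29 in fibroblast-like and 0.907 in granulosa-like cells. The non-irradiated Chek2-/- library was highest, at 1.31 times the non-irradiated WT library (limits 1.25 to 1.38). All 763 barcodes together held 89.4% of all Rgs5 UMIs. Ndufa4l2 (chr10:127514967-127517154, plus strand), a hypoxia-inducible relative of a cytochrome c oxidase subunit, stood at 1293, 1318, 1372 and 1267 UPM. Higd1b (chr11:102835849-102838040, plus strand), a mitochondrial inner membrane protein, stood at 679.6, 617.4, 601.5 and 592.8. Neither varied by library as much as Rgs5 did. Kcnj8 (chr6:142564837-142571614, minus strand), the pore of the vascular ATP-sensitive potassium channel, stood at 515, 592.7, 470.3 and 421.6 UPM. Vtn (chr11:78499091-78502324, plus strand), the secreted adhesion protein vitronectin, stood at 151.2, 144, 144.5 and 126.1. The 763 barcodes, which were chosen by these genes, held 94.3% of Higd1b, 92.3% of Vtn and 78.3% of Ndufa4l2 UMIs but 51.6% of Kcnj8 UMIs. Over all 763 barcodes the mean levels were lower, 1383 for Rgs5 and 732 for Ndufa4l2, since the UMIs of other cell types enter the total.

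The label pericyte was checked against mural genes that the rule did not use. Pdgfrb, the receptor for PDGF-B, was detected in 96.6% of the 763 and Notch3, the mural Notch receptor, in 92.5%. Cspg4, the proteoglycan NG2, was detected in 84.3%, and Abcc9, the regulatory subunit that pairs with the Kcnj8 channel, in 79.3%. In screened pericytes Pdgfrb stood at 927.4, 812.6, 840.1 and 694.8 UPM, against a mean of 45.1 in fibroblast-like and 18.5 in smooth muscle-like cells. Notch3 stood at 419.1, 412.5, 451.2 and 432.7, against 15.7 in smooth muscle-like cells. The transcription factor Ebf1 was at 1293, 1265, 1382 and 1178, with 282 in endothelial-like cells. The 4 libraries kept the same order of magnitude for each gene. All 763 barcodes held 28.8% of Pdgfrb, 39.5% of Notch3 and 50.1% of Ebf1 UMIs in all cells. In screened pericytes the endothelial genes Flt1, Pecam1 and Cldn5 were at 0.51, 1.302 and 1.74 UPM, against 452, 549 and 1155 in endothelial-like cells, but the rule itself set a limit on these genes. Endothelial genes that the rule did not use were not all low, with Emcn at 203 and Esam at 173 against 691 and 588. The summed level of the 13 endothelial markers was 449.8 to 521.1 UPM by library, against 7609 to 8687 in endothelial-like cells and 27.1 to 53.8 in smooth muscle-like cells. Barcodes with fibroblast markers had been set apart, which lowers these genes here. Of the fibroblast markers, Pdgfra was at 2.48 and Dcn at 55.8 UPM, against 289 and 2164 in fibroblast-like cells. The collagen genes Col1a2 at 849 and Col3a1 at 777 were higher in pericytes than Pdgfra or Dcn but below the fibroblast-like 2868 and 2383.

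The contractile programme was partial. Myl9, a myosin light chain, was at a mean of 1188 UPM in screened pericytes and 2058 in smooth muscle-like cells. Tpm2, a tropomyosin, was at 818 against 3276. Desmin (Des), an intermediate filament gene of muscle and pericytes, was nearly level at 388 against 341. By contrast Cnn1 (calponin) was at 2.63 against 876 and Actg2 (enteric smooth muscle actin) at 15.4 against 1422, though both were among the markers that picked the smooth muscle-like cells. Acta2 and Tagln, the early smooth muscle genes, varied among libraries more than the pericyte genes did. Acta2 stood at 922.1, 1099, 1558 and 2306 UPM, and Tagln at 554.6, 579.4, 808.3 and 1165, so both were highest in the irradiated Chek2-/- library. In that library 13 of the 151 screened pericytes also held at least 3 of the 5 smooth muscle gate markers, against 3, 2 and 5 in the non-irradiated WT, irradiated WT and non-irradiated Chek2-/- libraries. Whether those barcodes account for the difference was not tested.

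**Figure D2:**
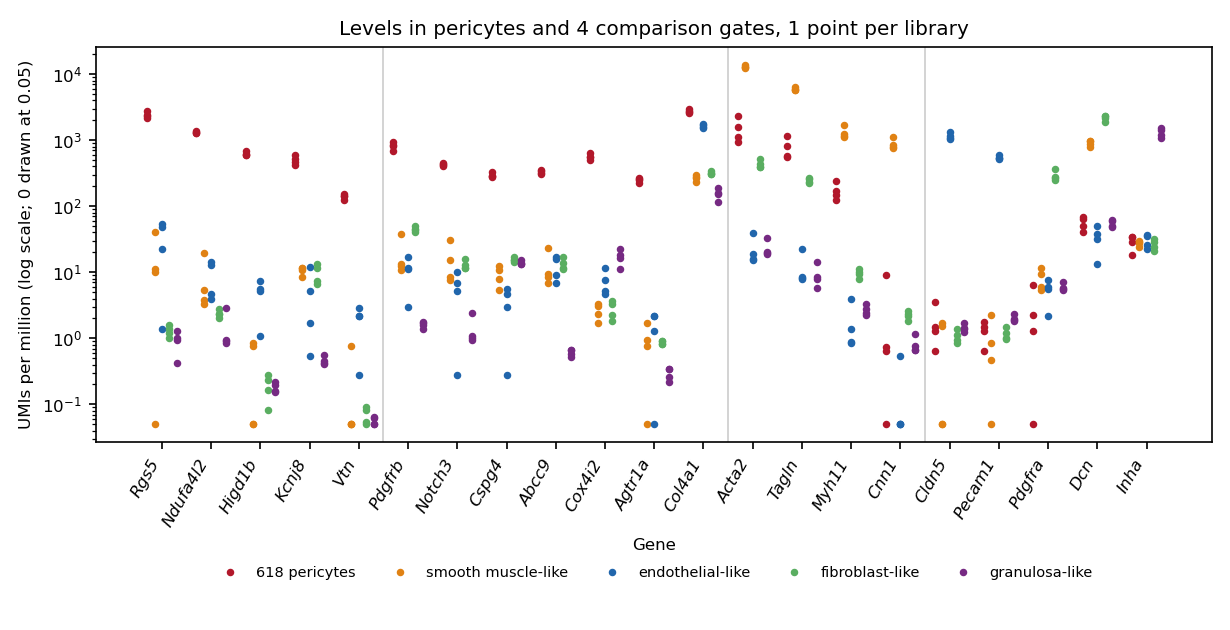
UPM on a log scale for 21 genes in screened pericytes and 4 comparison kinds of cells, 1 point per library (0 drawn at 0.05), with the genes of the rule at the left, other mural and vasoactive genes next, contractile genes next, and markers of other kinds at the right. Pericytes (red) are highest for every gene of the rule and for Pdgfrb, Notch3, Cspg4, Abcc9, Cox4i2, Agtr1a and Col4a1, and lie below smooth muscle-like cells for the contractile genes.

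Genes of the signals between pericytes and endothelium differed in level between these cell types. On the PDGF axis the ligand gene Pdgfb was at 16.8 UPM in pericytes and 201 in endothelial-like cells, while Pdgfa was at 190 in pericytes and 19.4 in endothelial-like cells. On the angiopoietin axis the context-dependent TIE2 ligand Angpt2 was at 76.2 in pericytes and 11.5 in endothelial-like cells, Angpt1 was at 16.4 in pericytes, and the receptor gene Tek was at 14.9 against 189. Pericytes expressed Notch targets strongly. Hes1 was at 524 UPM and Heyl at 342, against 160 and 5.35 in endothelial-like cells. Nrarp, a feedback inhibitor of Notch, was at 171 against 76.6, and the ligand Jag1 at 60.01 against 26.4. The receptor Notch1 had the opposite order, at 99.5 against 156. The RGS family divided by mural type, with Rgs4 at 228 and Rgs16 at 329 in pericytes against 1.27 and 7.95 in smooth muscle-like cells, and Rgs2 at 73.1 against 644.

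Genes for vascular tone were abundant. The soluble guanylate cyclase subunits that answer nitric oxide, Gucy1a1 and Gucy1b1, were at 636 and 312 UPM, against 62.3 and 11.5 in smooth muscle-like cells. The angiotensin receptor gene Agtr1a was at 252.2, 264.1, 257.1 and 224.8 UPM in the 4 libraries, with at most a mean of 1.41 in a comparison kind. Pericytes held 79.3% of its UMIs. The vasopressin receptor gene Avpr1a was at 44.3, and the endothelin receptor gene Ednra was at 184 with 67.7 in smooth muscle-like cells. Mc2r, known as the adrenal receptor for corticotropin, was at 49.8.

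Basement membrane genes were also abundant. Col4a1, a chain of type IV collagen, stood at 2974, 2776, 2675 and 2588 UPM in screened pericytes, against a mean of 1628 in endothelial-like cells and 268 in smooth muscle-like cells. Its partner Col4a2 was at 1594 against 1103. Sparc, a collagen-binding matrix protein, was at 4267 against 4584, at nearly equal levels. Lama4, the laminin chain of vascular basement membranes, was higher in endothelial-like cells, at 384 against 149, as was Hspg2 (perlecan) at 676 against 67.8. Among genes that remodel matrix, Serpine2 was at 1107 UPM, Timp3 at 453 and the protease gene Adamts1 at 449.

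Nuclear genes of the mitochondrial respiratory chain differed within pairs of related genes. Ndufa4, the widely used subunit that Ndufa4l2 resembles, stood at 106.3, 81.26, 99.29 and 108.5 UPM in screened pericytes, against means of 656 in smooth muscle-like, 676 in endothelial-like, 524 in fibroblast-like and 590 in granulosa-like cells. It was thus 5.31 to 6.84 times lower in pericytes, in the cells where Ndufa4l2 was at 1312. Cox4i2, the oxygen-responsive form of cytochrome c oxidase subunit IV, stood at 501.5, 546.7, 628.2 and 558.2 UPM, against at most a mean of 17.2 in a comparison kind. It was not a pericyte gene alone, since oocyte-like barcodes held 272 UPM and 76.4% of its UMIs. Its usual form Cox4i1 was not lower, at a mean of 1094 against 881 to 1294 in the comparison kinds. Higd1a, the relative of Higd1b, was at 112 against 88.3 to 161. Ndufa4 was not in the rule, but these cells were chosen by their expression, so the difference was not tested.

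**Figure D3:**
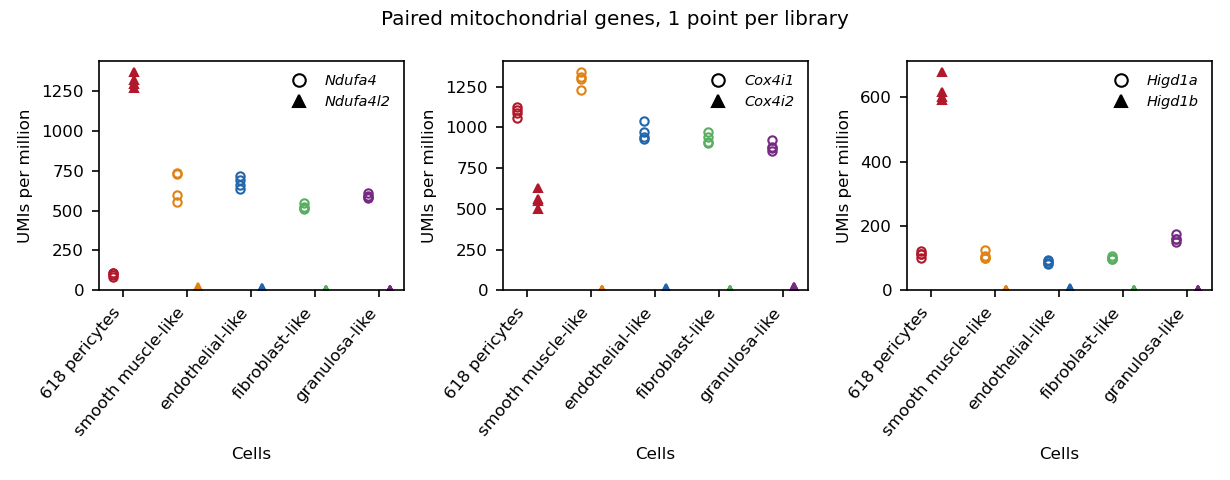
UPM of 3 pairs of related mitochondrial genes in screened pericytes and 4 comparison kinds, 1 point per library, with the common form as an open circle and the pericyte form as a filled triangle. Ndufa4 has means of 524 to 676 in the other kinds and 98.8 in pericytes, whereas Cox4i1 and Higd1a lie in the range of the other kinds.

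Genes concentrated in pericytes were listed by a fixed limit, at least 100 UMIs in pericytes and at least 4 times the level of each comparison kind in every library. This gave 151 genes over all 763 barcodes and 127 over the screened pericytes, with 69 in both (45.7% and 54.3% of the lists). Of the 82 genes found only with the 145 mixed barcodes, 71 had a higher level in oocyte-like barcodes than in pericytes, and 0 of the 127 did. Among the 20 of the 127 genes with the largest ratio to the next kind of cell were 4 of the 5 genes of the rule with ratios of 75.3 (Vtn) to 147 (Ndufa4l2), and Kcnj8 at 46.7. The rule chose the cells by these 5 genes, so their high ratios follow from that choice. The receptors Avpr1a (375.5), Agtr1a (176.6), Ffar2 (150.8, a receptor for short-chain fatty acids) and Mc2r (76.35) made up a second group. Secreted or matrix products were Cpxm2 (144.3), the eosinophil chemokine Ccl11 (101.4), Lgi1 (89.76) and Bmp5 (49.85). Others were Adap2os (431.1), Adap2 (100.0), Stac (56.95), Gm13861 (50.75), Tmem182 (49.21) and Bhlhe22 (37.24). The next kind of cell was at 0.0668 UPM for Adap2os, 0.118 for Avpr1a and 0.134 for Ffar2. The size and order of such ratios rest on few UMIs and are not read. Adap2os overlaps Adap2 by name as its antisense transcript, and how reads of the pair were told apart was not given in the sources used here.

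Screened pericytes were not uniform. The variance of the UMI count over its mean, after each cell was thinned to 3000 UMIs, had a median of 0.943 over 1972 genes in the library where each gene was lowest, and 1 is the value for counting error. It was highest for the nuclear RNA Malat1, at 19.7 to 22.2 by library. It was 8.03 to 15.2 for Acta2 and 5.98 to 12.4 for Tagln, so cells differed in contractile genes beyond counting error. Mgp, an inhibitor of calcification, was at 11.9 to 15.1 and Igfbp5 at 5.49 to 7.02. Of the genes of the rule, Ndufa4l2 was at 1.19 to 1.79 and Rgs5 at 3.76 to 4.77. Cenpf, a gene of dividing cells, was at 5.26 to 10.1. Some screened pericytes held several genes of dividing cells. These 90 barcodes had a median of 13550 UMIs, against 8260 in all screened pericytes, and the part of depth was not tested. At least 4 of 8 division genes (Top2a, Mki67, Cdk1, Ccnb1, Cenpf, Birc5, Cdc20 and Ube2c) were detected in 23 of 158 cells of the non-irradiated WT library (14.6%, exact limits 9.46 to 21.0%), 18 of 137 of the irradiated WT library (13.1%, 7.98 to 19.97%), 23 of 172 of the non-irradiated Chek2-/- library (13.4%, 8.67 to 19.4%) and 26 of 151 of the irradiated Chek2-/- library (17.2%, 11.6 to 24.2%). All 4 limits overlapped. Immediate early genes, which tissue dissociation is known to induce, were high, with Junb at 2453 UPM against 240 to 977 in the comparison kinds and Fos at 2177 against 724 to 2163.

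To ask how pericytes answered radiation, UMIs were summed per library and the ratio of UPM between irradiated and non-irradiated cells was taken, with exact 95% limits for counting error. In WT screened pericytes 407 of the 6404 genes with at least 50 UMIs were at least 1.5-fold apart (6.36%), 199 higher (3.11%) and 208 lower after irradiation. Over all 763 barcodes it was 1147 of 9929 (11.6%). Of 24 p53 targets 13 had at least 50 UMIs, and 8 of these were at least 1.5-fold higher and 0 lower. Some passed that minimum through their irradiated UMIs, so the count leans towards higher and is given as a description. Over all 763 barcodes it was 11 of 18. Cdkn1a, the p53-induced cell cycle inhibitor p21, went from 14 UMIs to 59, from 10.5 to 52.1 UPM, a ratio of 4.97 (2.74 to 9.65). It was detected in 2.55% of non-irradiated and 12.03% of irradiated WT pericytes thinned to 3000 UMIs (5.70 and 19.7% unthinned). The granulosa-like shares were 1.32 and 17.2%, so the pericyte share did not exceed theirs after irradiation. Free RNA was not measured, and its part in these shares was not tested. Bax, the pore-forming cell death gene, went from 194 to 424 UMIs with a ratio of 2.58 (2.17 to 3.07). Exoc4 had a ratio of 2.58 (1.78 to 3.77), Ccng1 of 2.41 (1.46 to 4.06), the p53-induced nuclease Aen of 2.36 (1.53 to 3.70) and Mdm2, the ubiquitin ligase that restrains p53, of 1.85 (1.26 to 2.74). Btg2 was at 1.12 and Rps27l at 1.38. Bbc3, the p53-induced death gene PUMA, had too few UMIs to be read.

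Other kinds of cells had ratios of like or larger size. Cdkn1a had ratios of 18.8 in smooth muscle-like, 16.0 in fibroblast-like, 9.57 in granulosa-like and 7.45 in endothelial-like cells, and the limits in fibroblast-like cells lay above those in pericytes. For Bax the comparison kinds had 2.06 to 2.41. Over the p53 list 21 of 24 genes in fibroblast-like cells (median 2.54) and 20 of 24 in granulosa-like cells (median 2.15) were at least 1.5-fold higher, as were 2.44 and 4.82% of all genes in those cells. Of 17 interferon-stimulated genes 16 were at least 1.5-fold higher in granulosa-like cells (median 4.48). Only 7 of them had at least 50 UMIs in screened pericytes, where 1 was (median 1.18), and over all 763 barcodes, which include at least 71 with granulosa markers, it was 10 of 13 (median 2.07). The members measured differ between these sets, so the counts were not compared. The most abundant of them in pericytes, Ifitm3, which blocks viral entry, was at 1040 UPM with a ratio of 1.15 (1.06 to 1.24).

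The largest ratio in WT screened pericytes belonged to Mmp2 (chr8:92827291-92853420, plus strand), a gelatinase that cuts basement membrane collagen. It went from 32 UMIs to 187, and from 23.95 to 165 UPM, a ratio of 6.90 (4.72 to 10.4). The UMIs were spread over many cells, 29 of 158 before and 74 of 137 after irradiation, and the 3 highest cells held 21 of the 187. After thinning to 3000 UMIs Mmp2 was detected in 7 non-irradiated (4.46%, limits 1.81 to 8.97%) and 46 irradiated WT pericytes (34.6%, 26.6 to 43.3%), while granulosa-like cells were at 6.25 and 6.97% (35.7 and 37.1% unthinned, against 18.4 and 54.0% in pericytes). The non-irradiated pericyte share was not above the granulosa-like one and is not read as expression. In the other kinds the WT ratio of Mmp2 was 1.25 in smooth muscle-like, 1.32 in endothelial-like, 1.15 in fibroblast-like and 1.21 in granulosa-like cells. In Chek2-/- pericytes the ratio was 2.14 (1.42 to 3.28), from 36 to 75 UMIs. Mmp2 is described because its WT ratio was the largest, most of its UMIs came from irradiated cells, and the non-irradiated level is low, so the size of the ratio was not compared between kinds of cells or genotypes. Over all 763 barcodes the WT ratio was 2.74, and it was 3.54 without the barcodes that Scrublet marked. Pericytes held 0.715% of all Mmp2 UMIs, so bulk ovaries say little of them. In bulk, Mmp2 was at 364.8 ± 46.1 CPM (counts per 1000000, mean ± SD, n = 6) in non-irradiated and 439.6 ± 34.2 CPM in irradiated WT ovaries, which did not pass the test (log2 fold change 0.27, edgeR quasi-likelihood test, Benjamini-Hochberg adjusted p = 0.114).

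The other genes of the 10 largest WT ratios were Gm42047 at 6.12 (3.17 to 12.9), Cdkn1a, Cdc25b at 3.12 (1.65 to 6.25), Bax, Exoc4, Zfp395 at 2.55 (1.45 to 4.65), Gm12840 at 2.53, Cul2 at 2.43 and Ccng1. Gm42047 also had ratios of 2.83 to 6.77 in the comparison kinds, and Zfp395 was at 0.921 to 1.04 there. With all 763 barcodes Zfp395 was at 1.05, Cul2 at 1.35, Cdc25b at 1.91 and Gm12840 at 3.56. For Cdc25b 3 cells held 18 of the 37 irradiated UMIs, with 11 cells holding a UMI before and 12 after, and for Gm12840 3 cells held 21 of 45. At the other end, the globin genes Hba-a2 (0.0106), Hbb-bt (0.0108), Hba-a1 (0.0122) and Hbb-bs (0.0197) were lowest, and 3 barcodes of the non-irradiated WT library held 6908 of its 7140 globin UMIs. Hist1h2ap (0.172), the oocyte gene Dppa3 (0.256), Hist1h2ae (0.274), Dlk1 (0.393), Pet100 (0.400) and Cabp1 (0.404) followed. Hist1h2ap, Hist1h2ae, Pet100 and Cabp1 were below 1 in every comparison kind too, Hist1h2ap at 0.155 to 0.488, while Dppa3 and Dlk1 were not. With all 763 barcodes Dppa3 was at 0.753, Dlk1 at 0.673 and Pet100 at 0.827. Over all 763 barcodes the 4 globin genes were again lowest, but the largest ratios were of other genes. The epithelial keratin Krt19 had the largest ratio (122.5), followed by Vrtn (75.5, 13.2 to 3018, against 1 UMI), Gm1965 (58.3, 10.1 to 2339, against 1 UMI), Krt7 (at least 57.0-fold higher, as the non-irradiated library was at 0 and 3 UMIs per library served as its limit), Lgals2 (likewise at least 53.5-fold higher) and Upk3b (42.8). For Krt19, 3 barcodes held 563 of the 641 UMIs, and 3 of the 4 barcodes counted under surface epithelium markers lay in the irradiated WT library.

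The 5 genes of the rule had to be detected in the cells of every library, so their levels between conditions are a description. None of the 5 was 1.5-fold apart after irradiation of WT or Chek2-/- pericytes or between the non-irradiated genotypes. The other mural genes gave 0 of 21 with at least 50 UMIs in each comparison, and with 6.36, 7.49 and 6.98% of all genes past that fold, a count of 0 is close to the background. Rgs5 had a ratio of 1.08 (1.02 to 1.14) in WT and 0.871 (0.834 to 0.910) in Chek2-/- cells, Ndufa4l2 of 1.02 and 0.923, and Pdgfrb of 0.876 and 0.827. In endothelial-like cells Rgs5 went from 62 UMIs to 5 in WT, a ratio of 0.0608, but its level there was at most 53.3 UPM in any library. Basement membrane genes gave 0 of 16 past 1.5-fold after irradiation in WT, and vasoactive genes 1 of 13, the potassium channel subunit Kcne4 at 1.83 (1.27 to 2.65).

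**Figure D4:**
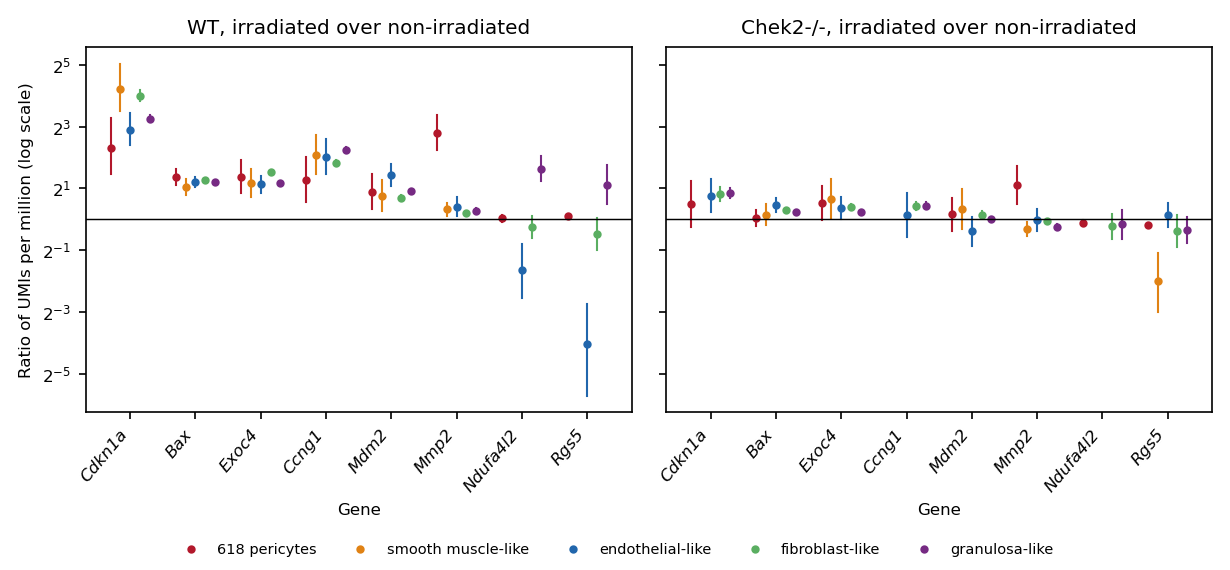
Ratio of UPM between irradiated and non-irradiated cells on a log scale, for 8 genes in screened pericytes and 4 comparison kinds, in WT (left) and Chek2-/- (right) libraries; bars are exact 95% limits for counting error and only ratios from at least 50 UMIs are drawn. In WT the ratios drawn for Cdkn1a, Bax and Ccng1 are above 1 in every kind, and in Chek2-/- pericytes the limits of Cdkn1a and Bax include 1. The WT pericyte ratio of Mmp2 (6.90) rests on a low non-irradiated level and is not compared between kinds.

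In Chek2-/- screened pericytes 541 of 7224 genes were at least 1.5-fold apart after irradiation (7.49%), 325 higher (4.5%) and 216 lower. Over all 763 barcodes it was 1765 of 10295 (17.1%). Of the p53 targets 2 of 14 were at least 1.5-fold higher, Plk2 at 2.89 and Phlda3 at 1.55, with a median of 1.16. Cdkn1a had a ratio of 1.39 (0.833 to 2.36) and Bax of 1.03 (0.864 to 1.23), and for Bax these limits lay wholly below those in WT. Chek2 itself was found with 17 and 19 UMIs in the WT and 5 and 8 in the Chek2-/- screened pericytes, and with 38, 41, 10 and 10 over all 763 barcodes. The 8 division genes were all at least 1.5-fold higher, from Birc5 at 1.57 to Ube2c at 2.65 (2.28 to 3.09), with a median of 1.96, against 2 of 8 and a median of 1.28 in WT. It was 4 of 8 over all 763 barcodes. Their summed level was 947.7 and 1923 UPM in the non-irradiated and irradiated Chek2-/- screened pericytes. It was also higher in the irradiated library in smooth muscle-like (102.5 and 242.5), endothelial-like (727.2 and 887), fibroblast-like (1017 and 1264) and granulosa-like cells (1220 and 1601). The share of cells with at least 4 of them had overlapping limits, as given above. The matrix protease gene Adamts4 went from 79 UMIs to 249, a ratio of 3.24 (2.50 to 4.22), where WT pericytes gave 1.24 and the comparison kinds of Chek2-/- ovaries 1.47 to 1.76. In bulk Adamts4 did not pass the test after irradiation of Chek2-/- ovaries (log2 fold change -0.06, edgeR quasi-likelihood test, Benjamini-Hochberg adjusted p = 1.0).

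The largest ratios in irradiated Chek2-/- screened pericytes rested on few cells. Actg2 was at 6.25 with 43 of its 67 UMIs in 3 cells. Kcnk1 was at 5.48, the interferon-inducible GTPase gene Iigp1 at 4.86 with 33 of 52 UMIs in 3 cells, the chemokine gene Ccl2 at 4.66 with 38 of 68 and Siah2 at 3.29 with 24 of 48. The smallest were S100a1 (0.342), Hoxc10 (0.378), Fbxl18 (0.399), Lyn (0.407) and AU019823 (0.416). With all 763 barcodes Fbxl18 turned to 1.11 and AU019823 was at 0.836. The 5 genes of the largest ratios were lower there, from Kcnk1 at 2.47 to Ccl2 at 2.96. Between non-irradiated Chek2-/- and WT screened pericytes 488 of 6996 genes were at least 1.5-fold apart (6.98%, and 9.53% over all 763 barcodes). The largest were Fbxl22 at 3.74, the heat shock gene Hspa1b at 3.61 (1.90 to 7.45), Rpl36a-ps1 at 3.34, Mcat at 2.98 and Gdf11 at 2.92, and the globin genes and Hist1h2ap (0.139) were smallest. Hspa1b was also higher in every comparison kind, at 2.09 to 8.58, and Hist1h2ap lower in each, at 0.0223 to 0.246. These 2 differences were thus not particular to pericytes. Of the RGS family, both limits were below 1 for Rgs2 at 0.397 (0.289 to 0.539) and Rgs16 at 0.594 (0.518 to 0.680). Rgs5 went the other way, as given above. The summed level of the family was 3028 UPM in non-irradiated WT and 3381 in non-irradiated Chek2-/- screened pericytes. With 1 library per genotype, genotype and library cannot be told apart.

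Bulk ovaries, which played no part in choosing the cells, tested the same genes with 6 libraries per condition at a depth of 17824920 to 32605519 counts. Of 27 mural genes (the 5 of the rule and 22 others), 3 were higher after irradiation of WT ovaries and 0 lower (edgeR quasi-likelihood test, Benjamini-Hochberg adjusted p at most 0.05). Among all 26790 genes 2.41% passed, 1.53% higher and 0.885% lower. After irradiation of Chek2-/- ovaries 0 of the 27 passed, 0 at an unadjusted p under 0.05 and 0 by DESeq2, beside 0.0112% of all genes. In whole tissue, fewer cells of a type and less RNA per cell cannot be told apart.

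Of the mural genes, Ndufa4l2 had the smallest bulk p. Its 6 non-irradiated WT libraries lay at 4.55 to 5.98 CPM (median 5.23), its 6 irradiated WT libraries at 7.86 to 13.1 CPM (median 9.40), its non-irradiated Chek2-/- libraries at 2.48 to 4.82 CPM (median 3.48) and its irradiated Chek2-/- libraries at 2.50 to 4.28 CPM (median 3.98). The WT groups did not overlap, and all irradiated WT libraries were above every other library. It rose in WT from 5.24 ± 0.5263 to 9.75 ± 1.96 CPM (SD, n = 6; log2 fold change 0.89, SE 0.17, edgeR with Benjamini-Hochberg adjusted p = 0.00197). In Chek2-/- ovaries it went from 3.58 ± 0.951 to 3.59 ± 0.8286 CPM (log2 fold change 0.01). The difference between the genotypes was -0.89 ± 0.24 (SE) and missed the threshold (edgeR, Benjamini-Hochberg adjusted p = 0.0843).

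In the single cells Ndufa4l2 was level in screened pericytes, at 1293, 1318, 1372 and 1267 UPM. It is a gene of the rule that chose these cells, so this level between conditions is a description. In oocyte-like barcodes (at least 6 of the 8 oocyte markers; 257, 152, 79 and 156 barcodes in the 4 libraries) it was at 5.69 in the non-irradiated WT library and 64.6 in the irradiated WT library, from 175 and 870 UMIs, and at 4.19 and 5.11 in the Chek2-/- libraries. All 763 pericytes held 1994 and 1931 Ndufa4l2 UMIs in these WT libraries. The median oocyte-like barcode held 91240, 30330, 150200 and 102900 UMIs in the 4 libraries, so these sets differed in depth. Which cells carried the bulk rise was not tested. Mcam, an adhesion protein of mural and endothelial cells, rose in bulk from 82.1 ± 5.24 to 98.2 ± 6.23 CPM (SD, n = 6; log2 fold change 0.26, SE 0.06, edgeR with Benjamini-Hochberg adjusted p = 0.0204), with no overlap between 74.4 to 89.0 and 90.9 to 105.8 CPM. It passed in 22 of 24 fits that left out a library, and lost the call without replicate 3 of the non-irradiated WT group (0.24) or of the irradiated WT group (0.25). In oocyte-like barcodes Mcam was at 2.57 and 32.3 UPM in the WT libraries and 0.611 and 0.843 in the Chek2-/- libraries, while pericytes were at 323.3, 409, 369.1 and 430.1. Over the 4 libraries the 763 pericytes held 27.95% of Mcam UMIs and oocyte-like barcodes 5.71%.

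**Figure D5:**
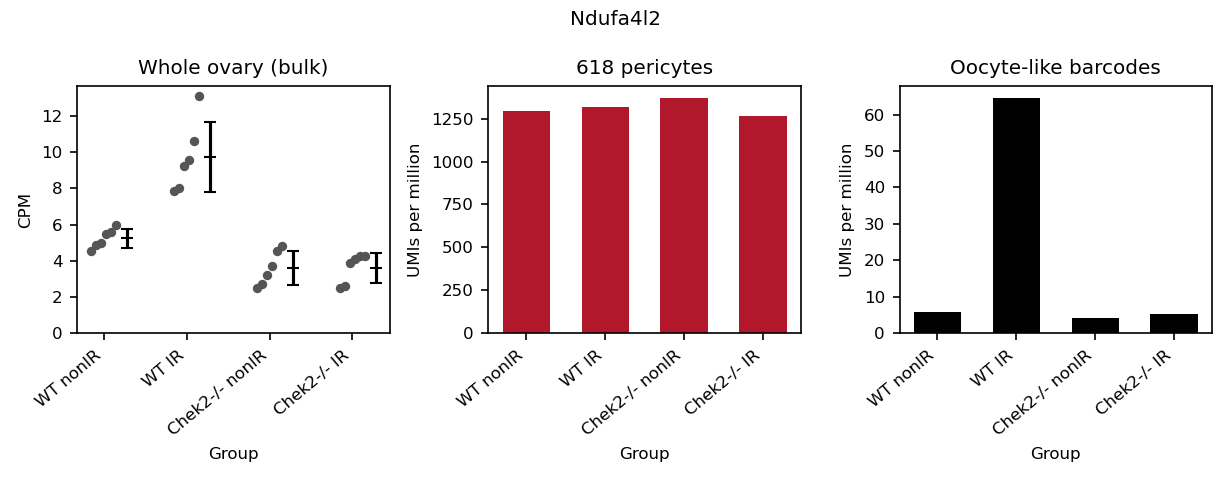
Ndufa4l2 in the 4 conditions: bulk ovaries in CPM with 1 point per library and the mean ± SD (n = 6) beside them, screened pericytes in UPM, and oocyte-like barcodes in UPM, each single-cell bar being 1 library. The irradiated WT condition is highest in bulk (7.86 to 13.1 CPM) and in oocyte-like barcodes (64.6 UPM), while the 4 pericyte values lie between 1267 and 1372. Ndufa4l2 is a gene of the rule that chose the pericytes, so their values are a description.

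Ebf1 also rose in irradiated WT ovaries, from 32.5 ± 7.81 to 53.1 ± 20.3 CPM (SD, n = 6; log2 fold change 0.71, SE 0.18, edgeR with Benjamini-Hochberg adjusted p = 0.0367). Here the groups overlapped, 22.8 to 44.5 against 30.0 to 83.2 CPM, and the call was kept in 16 of 24 fits that left out a library, with a fold change of 0.55 without replicate 2 of the irradiated WT group. None of the kinds of cells measured had a higher Ebf1 level in the irradiated than in the non-irradiated WT library, with pericytes at 1293 and 1265, endothelial-like cells at 323 and 253 and oocyte-like barcodes at 8.35 and 4.68 UPM. Of the other genes of the rule, Rgs5 was at 21.5, 21.9, 27.3 and 23.7 CPM in the 4 conditions, Kcnj8 at 26.2, 28.6, 30.3 and 28.3, Higd1b at 1.18, 1.18, 1.08 and 0.834 and Vtn at 0.848, 0.700, 0.833 and 0.825, and none passed in any comparison.

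Without irradiation, Notch3 and Cspg4 were lower in Chek2-/- than in WT ovaries, and these were the 2 mural genes that passed (5.34% of all genes did, 3.12% higher and 2.22% lower). Notch3 fell from 31.45 ± 4.44 to 22.7 ± 3.46 CPM (SD, n = 6; log2 fold change -0.47, SE 0.12, edgeR with Benjamini-Hochberg adjusted p = 0.0268), with groups of 25.6 to 38.3 and 18.5 to 28.2 CPM that overlapped. Cspg4 fell from 21.9 ± 5.13 to 14.5 ± 1.60 CPM (log2 fold change -0.59, SE 0.15, edgeR with Benjamini-Hochberg adjusted p = 0.0205), with groups of 15.9 to 28.9 and 12.9 to 16.4 CPM. Neither was lower in screened pericytes, at 419.1 and 451.2 UPM for Notch3 and 278.4 and 325.2 for Cspg4 in the WT and Chek2-/- libraries. Pericytes held 39.5% of Notch3 and 16.4% of Cspg4 UMIs in all cells. Marker lists of other cells went both ways. Fibroblast and stroma markers had a mean log2 deviation of 0.13 in non-irradiated WT and -0.13 in non-irradiated Chek2-/- libraries. Smooth muscle contractile genes were at 0.32 and -0.12, and granulosa, oocyte, macrophage and surface epithelium markers were also lower in Chek2-/-. Endothelial markers (-0.04 and 0.05) and erythroid markers (-0.31 and 0.57) were higher. The Chek2-/- erythroid mean rested on replicate 5 at 4.43, with the other 5 libraries at -1.35 to 0.58. For oocyte markers the means were 0.08 and 0.006. There replicate 6 of the Chek2-/- group lay at -0.69 and the other 5 at 0.10 to 0.18, so the lower mean rested on 1 library. The part of these cells in these results was not tested. Notch3 and Cspg4 each kept the call in 20 of 24 fits that left out a library. The number of mural calls was 0 without replicate 2 or 3 of the non-irradiated WT group or replicate 1 of the non-irradiated Chek2-/- group. The 6th non-irradiated Chek2-/- library stood apart, with a mean log2 deviation of 0.28 for the mural list against -0.20 to -0.04 in the other 5, and of -0.69 for oocyte, -0.64 for granulosa and 0.95 for surface epithelium markers. Its part in these results was not tested beyond leaving it out, after which 3 mural genes passed.

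Of the genes concentrated in pericytes, 149 of the 151 from all barcodes were tested in bulk and 3 passed after irradiation in WT, Ndufa4l2, Il34 and Vil1, a share near the 2.41% of all genes, with 0 in Chek2-/- (1 at an unadjusted p under 0.05 and 0 by DESeq2). Of the 127 from screened pericytes, 3 passed in WT, Ndufa4l2, Il34 and Ajuba, again near that share, so nothing is read from these counts. Both Il34 and Ajuba also passed the test of the difference between genotypes, as did 1.03% of all genes. By edgeR 0 mural genes passed it, with 4 at an unadjusted p under 0.05. By DESeq2 2 mural genes passed after adjustment, and 1 did by edgeR with replicate number added to the fit. Ajuba, a LIM protein of cell junctions, rose in WT from 38.8 ± 2.33 to 50.5 ± 6.36 CPM (SD, n = 6; log2 fold change 0.38, edgeR with Benjamini-Hochberg adjusted p = 0.00145), with a difference between genotypes of -0.41 (adjusted p = 0.0375, 9 of 24 fits kept it when a library was left out). In oocyte-like barcodes Ajuba was at 11.6 and 46.4 UPM in WT, and in pericytes at 120 and 104. Oocyte-like barcodes held 9.30% of Ajuba UMIs and pericytes 5.455%, and which cells carried the bulk rise was not tested. Il34, a ligand of the CSF1 receptor, fell in WT from 24.4 ± 1.53 to 19.1 ± 2.45 CPM (SD, n = 6; log2 fold change -0.36, edgeR with Benjamini-Hochberg adjusted p = 0.00451), and oocyte-like barcodes held 65.7% of its UMIs against 10.6% in pericytes. Its difference between genotypes was 0.43 (edgeR, Benjamini-Hochberg adjusted p = 0.0365, kept in 5 of 24 such fits), and it missed the threshold with no filter on low counts (0.41). Oocyte markers had a mean log2 deviation of 0.08 in non-irradiated and -0.12 in irradiated WT bulk libraries. Their part in the Il34 result was not tested.

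Between the non-irradiated genotypes 15 of the 149 passed (4 higher and 11 lower in Chek2-/-) and 11 of the 127 (7 higher and 4 lower), beside 5.34% of all genes. The higher ones of the 127 included Gadd45b, a growth arrest and stress gene, with a log2 fold change of 0.69 (edgeR, Benjamini-Hochberg adjusted p = 0.00745), Phlda1 at 0.50 (0.00896) and Gm13889 at 0.66 (0.0220). Tnfrsf21, Slc12a2, Cebpb and Sept7 were higher by 0.23 to 0.48. When a library was left out, Gadd45b and Phlda1 kept their call in 24 of 24 fits, Gm13889 in 22, Cebpb in 18, Slc12a2 and Sept7 in 17 and Tnfrsf21 in 16. The lower ones were Agt, the angiotensinogen gene, at -0.69 (adjusted p = 0.0396), Ppargc1b at -0.41, Cspg4 and Notch3, and of these Agt kept its call in 17 and Ppargc1b in 19 such fits. Pericytes held 40.9% of Gm13889 and 6.71 to 17.7% of the UMIs of the other higher genes, so most of their RNA lay in other cells. Gadd45b in screened pericytes was at 681 and 621 UPM in the non-irradiated WT and Chek2-/- libraries and Agt at 111 and 151, so neither followed the bulk direction. Of the 15, the 8 genes outside the list of 127 (Cd7, Map3k6, Zp1, Dusp14, Miox, Tubg2, Ninj2 and Efcab6) all fell, and oocyte-like barcodes held 74.9 to 92.0% of their UMIs. When a library was left out, Ninj2 kept its call in 6 of 24 fits, Efcab6 in 7 and Tubg2 in 13, and these 3 also missed the threshold with no filter on low counts, while the other 5 kept theirs in 21 to 23. The count of 15 dropped to 2 without replicate 4 of the non-irradiated WT group and rose to 30 without replicate 6 of the irradiated Chek2-/- group.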

How the data were processed

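The authors aligned droplet libraries with Cell Ranger to mm10 and deposited whole-number UMI counts per gene and barcode (unit: counts); barcodes were cut here at 1000 genes and 20% mitochondrial UMIs. For bulk ovaries they deposited estimated counts from Salmon 1.3.0 (nf-core/rnaseq), which were rounded to whole numbers; 38.1% were fractional. UMIs were summed per library and set of cells and scaled to UPM (UMIs per 1000000); ratios have exact binomial 95% limits. Doublets were marked with Scrublet (scanpy 1.11.5) and not removed from the 763. Bulk genes with at least 10 counts in total (26790 of 44674) were tested with edgeR 4.0.16 (TMM, quasi-likelihood, all 24 libraries in 1 fit by group) and Benjamini-Hochberg adjustment at 0.05; DESeq2 1.42.0 was an alternative. Of the bulk fits, only the main edgeR fit was tested on simulated data, and only for irradiation in WT. Bulk p-values measure the spread between these libraries. Members and lists were chosen with earlier results of these data known. The genes named were all 5 of the rule and the most abundant of each list, the 10 largest and 10 smallest WT ratios from at least 50 UMIs (5 and 5 for the other comparisons), the 20 genes with the largest ratio to the next kind of cell, bulk genes that passed (the 12 of smallest p where there were more) and Chek2, Cdkn1a, Bax, Ccng1, Mdm2 and Bbc3 (some genes the rule names are not reported here); Adamts4, the bulk values of Mmp2 and further genes that passed were named after their values were seen. Alternatives were other limits on markers, genes and mitochondrial UMIs, other filters, a replicate block and leaving out each bulk library.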

Additional observations from a re-analysis of the deposited data

Results flagged for a closer look

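In 15 of 188 groups of 6 bulk libraries, 1 library lay farther from the others than Dixon's 95% critical value allows, and chance gives about 1 in 20. In the non-irradiated Chek2-/- group the 6th library was highest for Abcc9 (507.6 CPM), Anpep (105.3), Aoc3 (18.1), Rgs5 (38.8), Higd1b (2.50), Vtn (1.575) and Tnfrsf21 (21.9), and lowest for Tubg2 (28.3) and Vil1 (78.8). In that group replicate 3 was highest for Agt (33.3 CPM). In the irradiated Chek2-/- group the 6th library was lowest for Dusp14 (11.2 CPM), Tubg2 (34.2) and Zp1 (206.4). In the irradiated WT group replicate 4 was highest for Cox4i2 (14.2 CPM) and replicate 3 for Tnfrsf21 (14.7). The response to irradiation differed between genotypes by a log2 value of 0.43 for Il34 and -0.41 for Ajuba in the interaction test (edgeR, Benjamini-Hochberg adjusted p = 0.0365 and 0.0375). When a library was left out, Il34 kept this call in 5 of 24 fits and Ajuba in 9.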

How the results depend on the processing

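Of 268 alternative values for results that answer a comparison, 210 were equal or within 1.5 times and 58 moved. Of 1068 other values, mostly for some of the named genes, 826 stayed, 77 moved and 165 lost their call. A reversal could be scored only for bulk fold changes and for ratios between libraries at least 1.5-fold apart. Of the values scored, 0 reversed. Only some of the named genes were scored, so this count does not cover the rest. For Fbxl18 the Chek2-/- irradiation ratio was 0.399 in screened pericytes and 1.11 over all barcodes of the rule. For Upk3b the WT irradiation ratio was 42.8 over all barcodes of the rule and 0.59 in screened pericytes. The latter rested on 1 irradiated and 2 non-irradiated UMIs. Genes at least 1.5-fold apart after irradiation in WT pericytes went from 1147 to 1787 with at least 4 of 5 markers, 1906 with fewer than 2 endothelial genes and 407 in screened pericytes, in Chek2-/- from 1765 to 867, 816 and 541, and between genotypes from 948 to 1543 with fewer than 2 endothelial genes and 488 in screened pericytes. Concentrated genes went from 151 to 97, 91 and, at 2-fold, 459. The cause was not tested. In bulk, a 2-fold limit took the WT mural and concentrated calls from 3 and 3 to 0 and 0, the genotype calls from 2 and 15 to 0 and 0, and the concentrated interaction call from 1 to 0. DESeq2 gave 4 mural and 31 concentrated genotype calls and 2 mural and 3 concentrated interaction calls. With the replicate block there were 32 concentrated genotype calls and 1 mural interaction call; no filter gave 0 and the screened list 2 concentrated interaction calls. With the block the Il34 interaction (0.425) also missed the threshold. By the criterion that every same-number correlation exceed 0.1, replicate numbers did not pair the samples: between irradiated and non-irradiated libraries it was 0.0478 to 0.496 in WT (median 0.173, other numbers -0.0324; 3 of 12 samples correlated best with their own number) and 0.0917 to 0.796 in Chek2-/- (median 0.4665, other numbers -0.0219; 8 of 12), a hint of pairing in the latter from the data and not from the design. Leaving out 1 library gave, for mural and concentrated genes, 1 to 3 and 2 to 5 calls in WT, 0 and 0 in Chek2-/-, 0 to 3 and 2 to 30 between genotypes, and 0 to 1 and 0 to 2 in the interaction; over all genes 516 to 829, 2 to 5, 573 to 1800 and 221 to 323. Ratios from fewer than 50 UMIs were not read, so genes at low levels in 137 to 172 cells could not be compared.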
